A study of Apis mellifera with 27 samples.

Results

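Acetylation of lysine 27 on histone H3 (H3K27ac) was compared between the brains of drones and queens of the honey bee (Apis mellifera). The data were the 4 deposited lists of H3K27ac peaks, 2 from drones and 2 from queens, out of the 27 samples of the series. All peaks of the 4 lists were merged where they shared at least 1 bp, which gave 30546 regions on the 16 placed chromosomes. A region with a peak in both drone libraries and in neither queen library is called drone-only here, and the reverse queen-only. There were 1502 drone-only and 3189 queen-only regions.

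The series used chromatin immunoprecipitation and sequencing (ChIP-seq) to map 4 histone modifications in 3 kinds of bee, which are called castes here: drone, queen and worker. Drones are males and develop from unfertilised, haploid eggs. Queens are the reproductive females and develop from fertilised, diploid eggs. All bees of this comparison were newly eclosed adults with no treatment, each library came from a pool of dissected brains, and the same Active Motif antibody was used in all 4 libraries. The labels hold 1 input library per caste, and the control used for each peak list was not stated in the sources used here. A pool averages over several bees and over neurons, glia and any other cells of the dissected tissue, so a change in the number of cells and a change in the mark per cell cannot be told apart. Drone and queen differ in sex, ploidy and rearing at once, and these cannot be told apart either.

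H3K27ac is placed on nucleosomes by acetyltransferases of the CBP/p300 family and is found at active promoters and enhancers. H3K4me1 is commonly found with it at enhancers, H3K4me3 at active promoters, and H3K27me3 at sequence silenced by Polycomb proteins. Lysine 27 carries either the acetyl or the methyl group, so H3K27ac and H3K27me3 exclude each other on the same histone tail.

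The 2 drone lists held 23167 and 21407 peaks, against 23450 and 25785 in the queen lists. The recovered depth, an estimate of the ChIP tags used when the peaks were called, was 10.8 and 8.76 M in drone and 15.7 and 14.2 M in queen (M as in Mb). By this estimate both drone libraries were shallower than both queen libraries, and caste and recovered depth cannot be told apart in the lists as deposited. The sequencing statistics of the paper have the reverse order, with more mapped reads in both drone than in both queen H3K27ac libraries. Why the orders differ was not tested. On placed chromosomes the drone lists averaged 22268 ± 1247 peaks and the queen lists 24580 ± 1667 (SD, n = 2 each). The log2 ratio was −0.14, with a two-sided exact permutation p of 0.333. That is the smallest p that 2 against 2 libraries allow. The lists also hold peaks at genes that neurons use: Para, a voltage-gated sodium channel, had 14 and 14 peaks in drone and 15 and 19 in queen. The active zone gene brp had 15 and 9 peaks in drone and 14 and 19 in queen. The label of brain tissue was checked no further, since the markers elav, nSyb and repo had no match in the gene table.

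Drone-only and queen-only regions were set against the mixed splits, in which 1 drone and 1 queen library share a peak that the other two lack. Drone-only regions were 4.92% of all merged regions and queen-only regions 10.4%. The 4 mixed classes held 245 (0.802%), 132 (0.432%), 536 (1.75%) and 567 (1.86%) regions, the highest of them in drone 2 with queen 1. The split by caste held 4691 regions (15.4%), against 377 (1.23%) for the mixed split by like replicate number and 1103 (3.61%) for the other mixed split. The caste split thus held 6.34 times the mean of the mixed splits, and it was the largest of the 3 possible splits (exact p = 0.333, the smallest that 3 splits allow). Peaks in all 4 libraries made up 13334 regions. Within a caste, 73.0% of the regions of either drone library were shared by both, and 70.0% in queen. Between castes the share was 55.5% to 60.7%.

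More regions were queen-only than drone-only, by 2.12 times, but the size of that excess moved with depth and strength. With each summit thinned at random to the depth of the shallowest library there were 1785 drone-only and 2608 queen-only regions, a ratio of 1.46. With the same number of peaks per library there were 2094 and 2395, a ratio of 1.14. The fold of a peak is the authors' ratio of its summit to the local background. Among peaks with a fold of at least 3 there were 1665 and 1777, a ratio of 1.07. Without drone 2, with drone 1 standing for the caste, there were 3464 and 4002, a ratio of 1.16. With 1 of the other libraries left out the ratio was 1.90 to 2.55. The excess of the caste split over the mixed splits was less affected, at 5.97, 6.998 and 5.63 times with thinning, equal peak numbers and a fold of at least 3. After thinning, both peaks were kept in 91.6% of the drone-only and 77.8% of the queen-only regions.

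**Figure D1:**
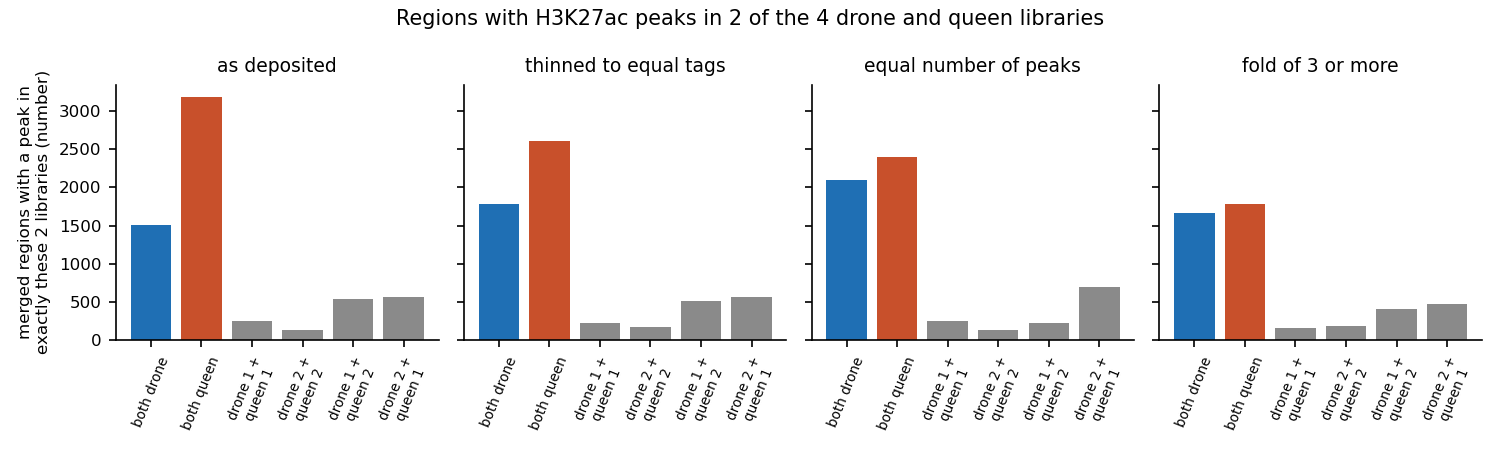
Number of merged regions with a peak in exactly 2 of the 4 libraries (y axis), for both drone, both queen and the 4 mixed pairs (x axis), in the lists as deposited and under 3 other settings. In all 4 panels both single-caste bars stand above every mixed bar, and the queen-only bar is at 3189 regions as deposited and at 1777 at a fold of 3 or more.

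Peaks at single-caste regions were narrower and weaker than peaks of the same library at regions found in all libraries. In the drone libraries their median widths were 334 and 293.5 bp, against 464 and 461 bp, and in the queen libraries 341 and 256 bp, against 627 and 441 bp. Their median folds were 2.84 and 2.62 against 4.82 and 4.60 in drone, and 2.87 and 3.22 against 4.20 and 4.55 in queen. A merged region can be wider the more libraries it joins. The median width of regions was 379 bp in drone-only and 366 bp in queen-only, against 254 to 339 bp in the mixed classes and 700 bp where all 4 libraries had a peak. Widths over 1000 bp were reached by 55 drone-only regions (3.66%) and 118 queen-only regions (3.70%), and by 32.7% of the regions found in all libraries. The lower of the 2 folds had a median of 2.49 in drone-only and 2.75 in queen-only regions. It was at least 3 in 29.2% and 42.1% of them. In the mixed classes the median was 1.93 to 3.35, and 7.46% to 68.3% of regions reached 3. By fold the single-caste classes thus lay within the range of the mixed classes.

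**Figure D2:**
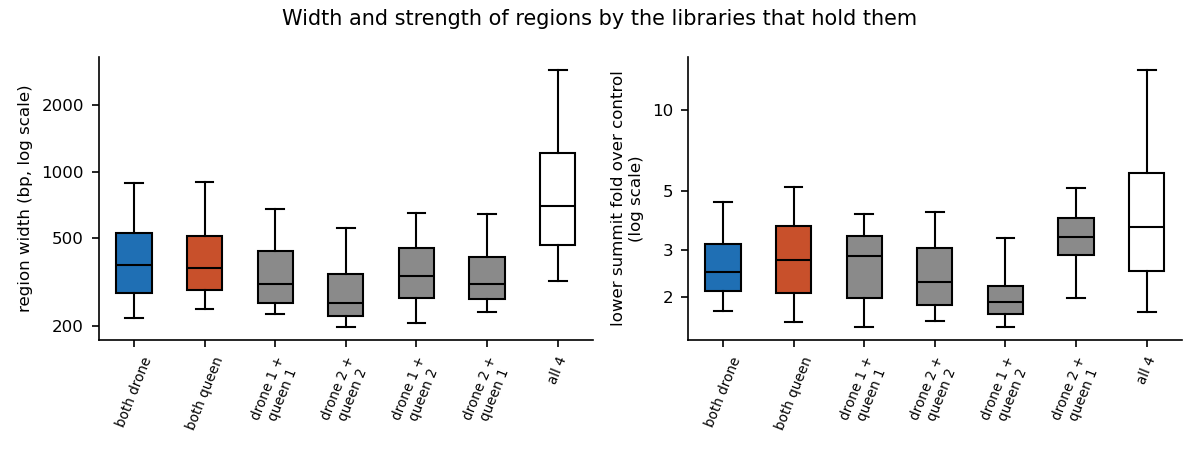
Region width in bp (left, log scale) and the lower summit fold among the libraries that hold the region (right, log scale), by class. Boxes give the quartiles, lines the medians and whiskers the 5th and 95th percentiles. Drone-only and queen-only regions have medians of 379 and 366 bp and folds of 2.49 and 2.75, against 700 bp and 3.65 where all 4 libraries hold a peak. The mixed classes have median folds of 1.93 to 3.35.

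Single-caste regions lay in gene bodies about as often as other regions. By the position of the midpoint, 81.6% of drone-only and 84.8% of queen-only regions were in gene bodies, against 82.7% of all merged regions. Between genes lay 13.3% and 12.6% of them, against 11.1% of all. Gene ends, here taken as 200 bp to each side of a gene's limits, held 5.06% of drone-only regions (76, Wilson 95% interval 4.06% to 6.29%) and 2.63% of queen-only regions (84, interval 2.13% to 3.25%). Of all merged regions 6.18% lay there, and of those in all 4 libraries 7.83%. In the mixed classes the share was 3.36% to 11.8%, a range that held the drone-only share and not the queen-only share. The gene table used gives no strand, so a gene end is a start or an end of transcription. The intervals cover counting error only, since neighbouring regions are not independent. Drone-only regions had a queen peak within 500 bp in 26.7% of cases, and queen-only regions a drone peak in 15.9%. At the other extreme, 73 drone-only (4.86%) and 306 queen-only regions (9.60%) had no peak of the other caste within 20 kb. In the mixed classes 27.7% to 40.9% had a peak within 500 bp in a library that lacked the region. In 1.52% to 3.67% there was none within 20 kb.

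Single-caste regions were also found in runs. A cluster was taken as at least 3 regions of 1 class, each within 10 kb of the next. By this rule 93 clusters held 362 drone-only regions (24.1%), and 261 clusters held 1052 queen-only regions (33.0%). The mixed classes had 0, 0, 5 and 2 clusters, with 0% to 2.80% of their regions. The classes differ in size, and larger classes form more clusters at equal spread. The 2 largest drone-only clusters both lay in the gene E75 on chromosome 11 and held 11 and 9 regions. The largest queen-only cluster held 17 regions over 42.4 kb on chromosome 11 (chr11:10132656-10175062 on Amel_HAv3.1), at LOC408348 and LOC113219104, with no drone-only region and none found in all libraries. Further queen-only clusters held 14 regions in LOC410951, 12 in LOC552251, 12 at LOC725422, and 11 each at Usp and Dop1. By chromosome, the drone-only share of regions was between 3.58% (chromosome 16) and 6.36% (chromosome 14). The queen-only share was between 8.29% (chromosome 8) and 14.4% (chromosome 12).

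Peaks of the other marks, which took no part in choosing the regions, followed the caste in H3K4me1. H3K4me1 peaks overlapped 35.0% and 41.3% of the drone-only regions in the drone libraries and 13.6% and 10.5% of them in the queen libraries. At queen-only regions the shares were 19.8% and 19.4% in the drone libraries and 46.8% and 42.3% in the queen libraries. The groups did not overlap at either class. The share at drone-only minus that at queen-only regions was 18.5 ± 4.85 points in drone and −32.5 ± 0.980 points in queen (SD, n = 2 each). These differ by 51.0 points, with an exact p of 0.333, the smallest possible. At the regions found in all 4 H3K27ac libraries the H3K4me1 shares were 39.2% and 43.5% in drone and 36.9% and 36.6% in queen. In the mixed classes they were 9.35% to 29.1% in drone and 12.9% to 26.5% in queen. The castes did not overlap at the regions in all 4 libraries either. Among the mixed classes they overlapped only in drone 2 with queen 2. A lack of overlap was thus not particular to single-caste regions. Both drone and neither queen H3K4me1 library had a peak at 261 drone-only regions (17.4%), and the reverse held at 17 (1.13%). At queen-only regions both queen and neither drone library had one at 525 (16.5%), and the reverse held at 35 (1.10%).

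H3K4me3 was rarer at single-caste regions than at regions in all 4 libraries, where its shares were 27.6% and 21.3% in the drone libraries and 36.7% and 39.7% in the queen libraries. At drone-only regions it was present in 7.32% and 3.79% in the drone libraries and 3.40% and 4.79% in the queen libraries, and these overlapped. At queen-only regions it was present in 1.41% and 0.596% in the drone libraries and 12.2% and 15.5% in the queen libraries. The difference between castes, taken as for H3K4me1, was 14.3 points (exact p = 0.333). Both queen and neither drone H3K4me3 library had a peak at 7.12% of queen-only regions, which was no more than the 8.05% at regions in all 4 libraries. The drone H3K4me3 lists were short, with 5412 and 3866 peaks against 8931 and 10010 in queen, and the part of this in the result was not tested. For H3K27me3 the difference was 0.546 points (exact p = 0.667). Its peaks covered 5.99% and 6.72% of drone-only regions in the drone libraries and 7.79% and 7.72% in the queen libraries. At queen-only regions they covered 5.74% and 5.52% in drone and 7.49% and 7.65% in queen. At regions in all 4 libraries the shares were lower, at 2.05% and 2.15% in drone and 2.39% and 2.47% in queen. The mixed classes had 0% to 7.09%. Where 1 control served all marks of a caste it would enter H3K27ac and H3K4me1 alike, and its part was not tested.

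Workers, the non-reproductive females, are the third caste of the series. Their 2 H3K27ac libraries had a peak at 26.8% and 34.2% of drone-only regions and at 52.1% and 57.4% of queen-only regions. Neither worker library had a peak at 912 drone-only regions (60.7%) and at 1164 queen-only regions (36.5%). Both had one at 325 (21.6%) and 1465 (45.9%). In the mixed classes the shares were 33.9% to 52.3% in worker 1 and 45.3% to 60.6% in worker 2. In each worker library the queen-only share lay within that range and the drone-only share below it.

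**Figure D3:**
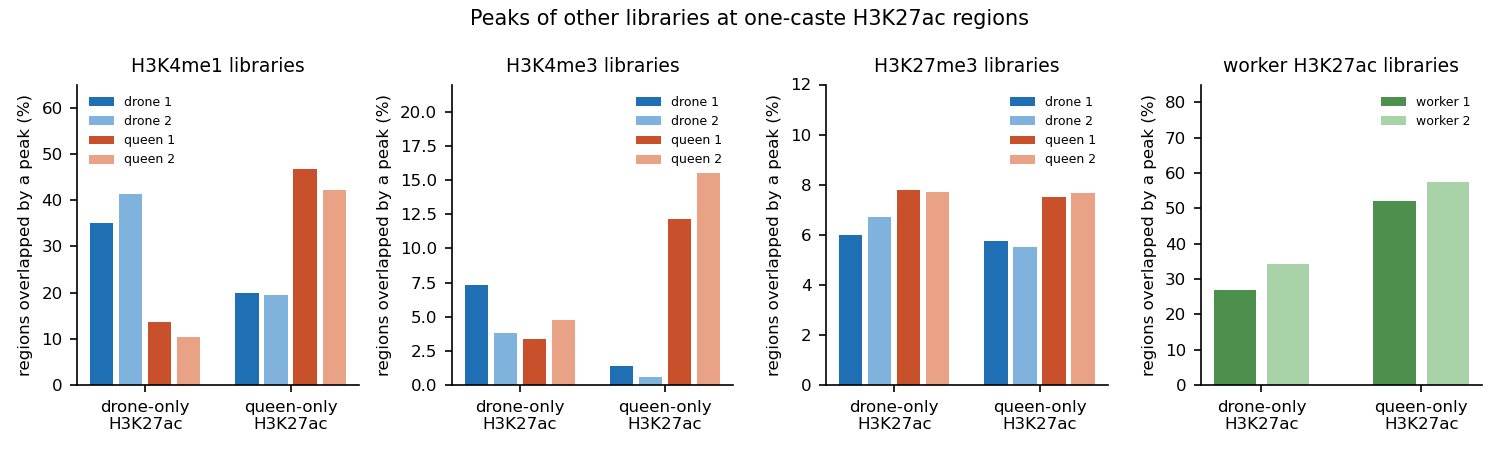
Share of drone-only and queen-only H3K27ac regions (x axis) overlapped by at least 1 bp of a peak of each other library, in percent (y axis). One panel each shows H3K4me1, H3K4me3 and H3K27me3 in the drone and queen libraries, and the last shows worker H3K27ac. For H3K4me1 the drone bars are the higher pair at drone-only regions (35.0% and 41.3%) and the queen bars at queen-only regions (46.8% and 42.3%), while H3K27me3 stays between 5.52% and 7.79%.

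Of 12255 genes on placed chromosomes, 877 (7.16%) overlapped a drone-only region and 1388 (11.3%) a queen-only region, and 325 genes had both. Long genes offer more room: the median length was 24273 bp for genes with a drone-only region and 28012 bp for those with a queen-only region, against 5909 bp for genes with any merged region. The numbers of a gene are therefore given with all its merged regions. Peak numbers and coverage of a gene come from the same lists as its regions. Many genes were named for those regions, so a caste difference in coverage is no separate support. The share of all genes with such a difference was not computed. The lists give calls, so a missing peak does not show that the mark was missing. Many leading genes have only a LOC number in the gene table and are given by it.

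Ecdysteroids are the moulting hormones of insects. Their receptor is a pair of the proteins Ecr and Usp, and it induces early genes such as E75 (a nuclear receptor), E74 (an Ets-domain factor) and Br-c (zinc-finger factors). Kr-h1 is the early response gene of juvenile hormone. Of the 15 hormone genes listed, these 6 matched the gene table. All 6 overlapped a single-caste region, 3 of them drone-only and 5 queen-only regions. Of all genes, 7.16% overlapped a drone-only and 11.3% a queen-only region. The 6 genes were 8692 to 161432 bp long, against a median of 5909 bp for genes with any merged region. Across the 6 genes 35 regions were drone-only (16.6%) and 23 queen-only (10.9%), of 211 merged regions, against 4.92% and 10.4% of all merged regions. E75 alone held 20 of the 35, and without it the drone-only share was 8.67%.

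E75 (chr11:10210607-10372038) had the most drone-only regions of all genes, 20 of its 38 merged regions, with no queen-only and no mixed region. Its span held 39 and 32 peaks covering 20.1 and 17.2 kb in drone, against 7 and 12 peaks covering 5.49 and 6.86 kb in queen. The 20 regions spanned 56.2 kb of the middle of the gene in the 2 clusters given above, were 274 to 1120 bp wide, and had folds between 1.70 and 5.68. The strongest, of 296 bp, was centred 86704 bp from the lower-numbered end of the gene and had folds of 5.68 and 4.36. Worker peaks were absent from 10 of the 20 and present in both workers at 3. The workers held 16 and 20 peaks over 9.36 and 9.28 kb, between the castes. H3K4me1 peaks lay at 8 of the 20 regions in both drone libraries and at 0 in both queen libraries. E75 kept 18 drone-only regions and no queen-only region after thinning, and 11 to 21 across all settings of the full set of libraries.

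Usp (chr9:7403312-7457844), the partner of Ecr, had regions of the other class. It had 13 queen-only and 0 drone-only regions of 32, again with no mixed region. It held 18 and 10 peaks over 8.85 and 6.76 kb in drone, against 29 and 38 peaks over 21.9 and 16.7 kb in queen. The folds of the 13 regions were 1.69 to 6.12, and the highest value was at a region of 368 bp centred 49612 bp into the gene, with 6.12 and 4.85. Workers had no peak at 8 of the 13 and both workers had one at 4. Thinning left 12. LOC102653834 and LOC102653672 overlap the cluster in Usp, and a region inside overlapping genes was counted for each.

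Ecr and E74 had regions of both classes. Ecr had 4 drone-only and 1 queen-only region of 53, and its coverage overlapped between the castes, at 40.1 and 37.3 kb in drone against 43.7 and 39.4 kb in queen. The single queen-only region of Ecr was stronger than its drone-only regions, with folds of 7.15 and 8.41, and had H3K4me1 in both queen libraries. E74 had 11 drone-only and 4 queen-only regions of 64, and its coverage was 41.8 and 38.6 kb in drone against 33.6 and 36.4 kb in queen. Br-c had 0 drone-only and 4 queen-only regions of 20, all weak (folds 1.45 to 2.41). None of the 4 was left after thinning.

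Kr-h1 had 1 queen-only region of 4, which was among the strongest of that class. It covered 1557 bp near the higher-numbered end of the gene (chr6:16509240-16510796), with folds of 12.8 and 8.29, and both workers had a peak there. A drone peak lay 658 bp away, at a region shared by all 4 libraries. That neighbour had folds of 4.64 and 4.78 in drone and 13.8 and 17.5 in queen.

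**Figure D4:**
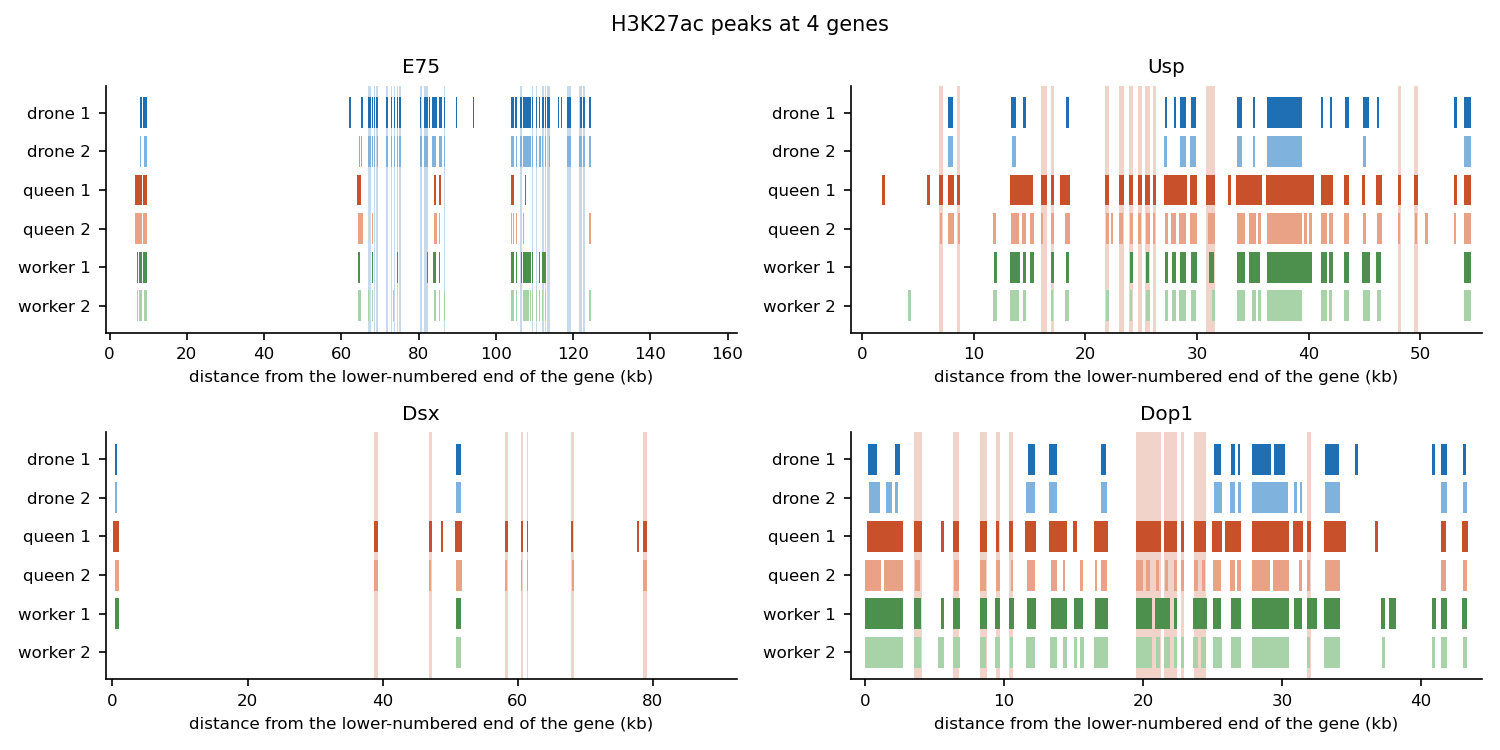
H3K27ac peaks (bars) in the 2 drone, 2 queen and 2 worker libraries along E75, Usp, Dsx and Dop1, by distance in kb from the end of the gene with the lower coordinate. Shading marks drone-only (blue) and queen-only (orange) regions: 20 drone-only in E75, and 13, 7 and 10 queen-only in Usp, Dsx and Dop1. The worker bars cover most shaded regions of Dop1 and none in Dsx.

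Sex is determined in the honey bee by csd, whose heterozygous state in females directs the splicing of fem, and fem in turn that of Dsx, a transcription factor with male and female isoforms. Of the 7 genes listed for this pathway 4 matched. Dsx (chr5:3529523-3620990) had 7 queen-only and 0 drone-only regions of 11, and csd, fem and tra2 had none. Its span held 2 and 2 peaks over 1.07 and 1.10 kb in drone, against 11 and 9 peaks over 5.44 and 3.73 kb in queen. The 7 regions had folds of 1.70 to 5.94, with the highest pair, 4.64 and 5.94, at a region of 383 bp centred 60632 bp into the gene. No worker library had a peak at any of the 7. Thinning left 3 of the 7.

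Receptors of the biogenic amines carried queen-only regions and no drone-only region in these lists. Dopamine, octopamine, tyramine and serotonin act in the insect brain on arousal, learning and motor behaviour. Of 18 amine genes listed 10 matched, and 6 of these, all receptors, held 19 queen-only (34.5%) and 0 drone-only regions, of 55 merged regions. Queen-only regions were 10.4% of all merged regions, and 11.3% of all genes had one. Dop1, a dopamine receptor of the D1 type, had 10 of its 27 regions queen-only. It held 15 and 15 peaks over 7.63 and 8.94 kb in drone, against 24 and 31 peaks over 20.1 and 14.2 kb in queen. Unlike at Dsx, worker 1 had a peak at 9 and worker 2 at all 10. Thinning left 9, and a fold of at least 3 left 5. TyrR, a tyramine receptor, had 4 queen-only regions of 14 with folds of 2.46 to 5.53, and both workers had peaks at all 4. DopR2 had 2 queen-only regions, and Dop3, 5-HT1 and 5-ht7 had 1 each. None of these 4 genes had a queen-only region at a fold of at least 3, while TyrR kept its count of 4. The transporter gene Dat and the receptor genes Oa1, 5-HT2alpha and 5-HT2beta had no merged region at all.

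Subunits of the nicotinic acetylcholine receptor held both classes at shares near those of all regions. Of 11 listed subunits 10 matched, 2 with drone-only regions (5 in all, 5.75%) and 3 with queen-only regions (11 in all, 12.6%), of 87 merged regions. nAChRa4 had 9 queen-only and 0 drone-only regions of 15. It held 1 and 1 peak over 0.546 and 0.614 kb in drone, against 11 and 14 peaks over 4.21 and 4.36 kb in queen. H3K4me1 was present in both queen libraries at all 9 and in both drone libraries at 0. The 9 regions became 6 after thinning, 5 at equal peak number and 4 at a fold of at least 3. nAChRa3 had 4 drone-only and 0 queen-only regions of 42, but its coverage overlapped between the castes (19.98 and 19.9 kb in drone, 24.8 and 18.4 kb in queen). AChE-2, an acetylcholinesterase, had 0 drone-only and 9 queen-only regions of 42, and its coverage was 6.66 and 5.78 kb in drone and 14.3 and 13.2 kb in queen.

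Dscam, an immunoglobulin-domain receptor that lets neurites of 1 cell recognise each other, had 3 drone-only and 0 queen-only regions of 15, with a coverage of 16.7 and 14.1 kb in drone and 10.5 and 11.4 kb in queen. It was the only gene matched of 17 listed for neuronal differentiation. Neurexin was listed there too, as Nrx1, but the match missed it because the gene table writes Nrx-1. Nrx-1, the presynaptic neurexin, had 0 peaks in both drone libraries and 10 and 11 in queen, over 3.71 and 3.01 kb, with 5 queen-only regions of 16. Worker peaks were more numerous there, at 18 and 24. The 5 regions became 3 after thinning, 2 at equal peak number and 1 at a fold of at least 3. Nrx-1 and Abscam were named for their queen-only regions. Abscam had 8 queen-only regions of 25, of which thinning left 5 and a fold of at least 3 left 0.

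Signalling genes with many queen-only regions included Camkii, a calcium-dependent kinase of synapses, with 1 drone-only and 11 queen-only regions of 64. Its peaks covered 16.5 and 15.1 kb in drone and 33.3 and 25.04 kb in queen. Mad, the intracellular transducer of BMP signals in Drosophila, was the 1 gene matched of the 11 listed BMP genes. It had 3 drone-only and 12 queen-only regions of 85, and 5 and 10 after thinning. The cGMP-dependent kinase For had 1 and 5 of 23, and the pH-sensitive chloride channel pHCl had 1 and 6 of 28.

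**Figure D5:**
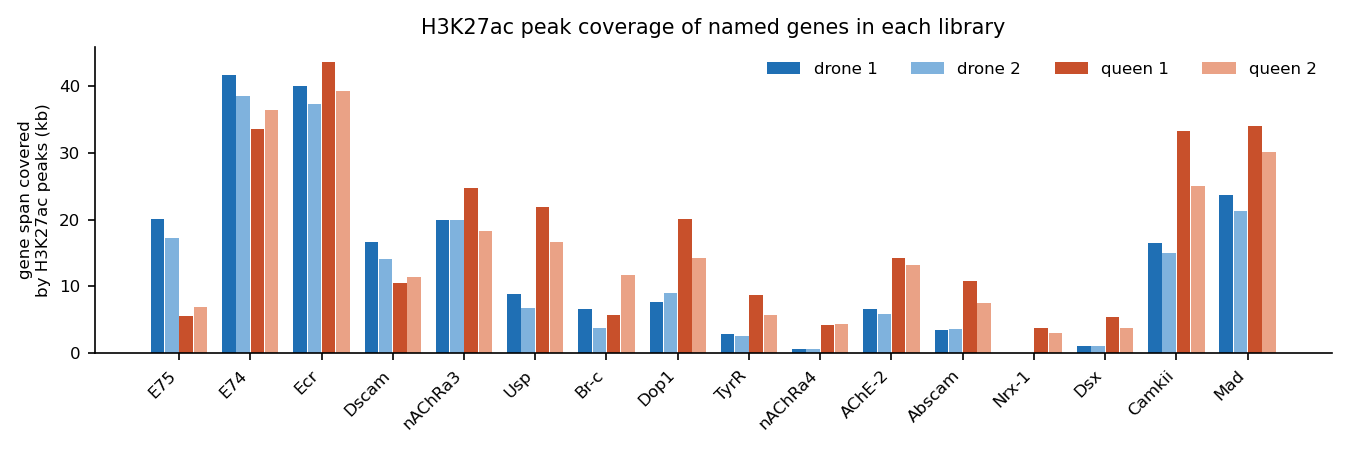
Length of each named gene covered by H3K27ac peaks in kb (y axis) in the 2 drone and 2 queen libraries, 1 bar per library. Both drone bars are above both queen bars at E75, E74 and Dscam, and both queen bars above both drone bars at Usp, Dop1, TyrR, nAChRa4, AChE-2, Abscam, Nrx-1, Dsx, Camkii and Mad. At Ecr, nAChRa3 and Br-c the castes overlap. The genes shown were picked among those with single-caste regions in these same lists, and the share of all genes that separate this way was not computed.

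Of 8 listed Hox genes 2 matched, and each had few regions. Ubx had 2 drone-only regions and no other, with folds of 4.56 and 3.96 at the stronger, and Antp had 1 queen-only region and no other. CPR4 and CPR5, of the CPR family of cuticle proteins, were named for their drone-only regions and each had 2 drone-only regions and no other. The CPR4 region at the gene end was among the strongest drone-only regions, with folds of 6.07 and 6.29. The 2 clock genes matched of 10 listed (Per and Cry2) and the 4 opsins matched of 5 had no single-caste region. Among other named genes, Psq, a transcription factor in Drosophila, had 2 drone-only and 0 queen-only regions of 17, and Pcl 2 and 0 of 3. Nedd9 had 3 of each class of 30, and Amih 1 drone-only and 5 queen-only regions of 27. None of the 20 listed transcription factors of the eye had a match in the table.

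The genes with the most single-caste regions were mostly unnamed. After E75 and E74, drone-only regions were most frequent in LOC551071 and LOC408862 (10 each) and LOC552257 and LOC408616 (9 each). Several LOC genes had 8, of which LOC100577636, LOC102655072 and LOC410925 had no queen-only region. LOC552257 had 0 queen-only regions, with coverages of 8.45 and 5.97 kb in drone against 0.857 and 1.94 kb in queen, and worker peaks at 1 of the 9. The queen-only side was led by LOC410951 with 24 of 100, LOC408372 with 23 of 101, LOC725329 with 21 of 174, and LOC413503 and LOC408618 with 19 each. LOC408372 and LOC408618 had 0 drone-only regions, and LOC410951 and LOC725329 had 5 each. At a fold of at least 3 the order turned in LOC725329, with 15 drone-only and 12 queen-only regions.

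The strongest drone-only region, by the lower of its 2 folds, had folds of 9.90 and 9.65 and lay in LOC409500 (chr5:13889141-13889464). The nearest queen peak was 324 bp away, and both workers had a peak. The next were in LOC724890 (10.2 and 7.02) and LOC726514 (7.50 and 6.99). The strongest queen-only region had folds of 8.92 and 9.01 and lay in LOC408618 (chr1:4091111-4091536), with the nearest drone peak 5740 bp away and peaks in both workers. LOC408733 (8.99 and 8.81) and LOC413817 (9.07 and 8.81) followed. These regions lay well above the medians of their classes.

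Regions with a peak in all 4 libraries were compared by their folds, on a log2 scale centred on the median of each library. These medians were 2.34 and 2.28 in drone and 2.11 and 2.28 in queen before centring. With limma and Benjamini-Hochberg adjustment over all 13334 regions, 391 (2.93%) were higher in drone and 344 (2.58%) lower in drone at an adjusted p below 0.05. The median log2 difference was 1.04 in those higher and −1.08 in those lower. No region passed when the recovered summit pileup per M tags took the place of the fold (3115 had an unadjusted p below 0.05, against 3820 in the fit of the folds). 722 of the 735 regions kept their direction there. None passed in limma either when drone 1 or drone 2 was left out (1939 and 2439 with an unadjusted p below 0.05). Leaving out queen 1 gave 697 and 667, and leaving out queen 2 gave 1560 and 1530. With the replicate number as a block there were 157 and 167. The calls were thus not kept with pileup, where the smallest limma adjusted p was 0.0678, or without either drone library. Without a drone library the variance came from the queen pair. The within-caste SD of centred log2 fold was 0.312 in queen and 0.225 in drone. The part of this spread, and of the local background that the fold contains, was not tested.

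H3K4me1 differed at these called regions in the same direction as at the single-caste regions. At those higher in drone it was present in 52.2% and 61.4% in the drone libraries and in 21.5% and 22.3% in the queen libraries. At those lower in drone it was present in 48.0% and 44.8% in drone and 71.2% and 67.4% in queen. At regions not called the shares were 38.6% and 42.9% in drone and 36.4% and 36.2% in queen.

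The regions with the smallest p in either direction differed severalfold. In LOC552244 (chr6:15675787-15676327) the folds were 6.09 and 6.70 in drone and 1.53 and 1.92 in queen (log2 difference 1.78, SE 0.193, limma adjusted p = 0.0283). At LOC408959 and LOC725021 they were 12.6 and 12.6 in drone and 3.21 and 4.30 in queen. The others higher in drone lay at LOC102655815, at LOC113218581 and LOC408586, and at LOC100576251. In the other direction LOC100577082 (chr1:8189181-8189709) had folds of 2.99 and 2.45 in drone and 13.5 and 16.02 in queen (log2 difference −2.56, SE 0.191, limma adjusted p = 0.0253). The region of Kr-h1 given above had a log2 difference of −1.84 (SE 0.189, limma adjusted p = 0.0283). LOC413783 and LOC100576709 had log2 differences of −2.20 and −2.38. The region at LOC100578705 was lower in drone by fold (log2 difference −1.60) but its pileup per M tags was higher in drone (0.45).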

How the data were processed

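The members, gene lists and tests were chosen with earlier results of these data known. Reads were mapped with BWA (0.7.17, per the submitters' processing notes) to Amel_HAv3.1, and the authors called peaks per library with MACS2. Each deposited peak has a fold (ratio of the summit to the local background) and the −log10 of a p-value and of a q-value. Those lists ended at a −log10 q of about 2.00. Depth was recovered by solving fold and p for the summit pileup, which came out whole (within 0.2 of a tag) in 100% of peaks, taking the shortest peak as fragment length and a genome of 270000000 bp.

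Analyses used Python 3.11.15, pandas 2.3.3, scipy 1.17.1 and limma 3.58.1 (R 4.3.3), and were tested on simulated data. In thinned lists a −log10 p of at least 4 was required. Other marks and worker lists were overlapped by at least 1 bp. Gene spans came from the RefSeq table of Amel_HAv3.1 (12255 placed genes, without strand or exons). Genes were named as those with the most regions of a class, at the strongest regions, largest clusters or smallest limma p, or as listed genes with a single-caste region. Of 122 listed genes 40 matched. No sequence is printed, since no genome was used. Unplaced scaffolds were left out, and the input libraries were not analysed here. Alternatives were stricter peaks, equal depth or number, other merging, overlap and cluster distances, left-out libraries and replicate blocks. P-values measure the spread between 2 pools per caste.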

Additional observations from a re-analysis of the deposited data

How the results depend on the processing

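In the settings with all 4 libraries, the counts of drone-only and queen-only regions stayed within 1.5 times of the reported ones. The exception was a fold of at least 3, which gave 1777 queen-only regions. With 1 library left out, the other of its caste standing for it, drone-only counts were 2256 to 3464 and queen-only counts 4002 to 6200. All these drone-only counts were more than 1.5 times the reported one. The queen-only count was so without queen 1 (5551) and without queen 2 (6200). For the regions in all 4 libraries the numbers higher and lower in drone were 157 and 167 with a replicate block, 0 and 0 for pileup per M tags, and 543 and 526 after quantile normalization. Leaving out a library gave 0 to 1560 higher and 0 to 1530 lower, the lone library of a caste being assumed to vary like the other caste. Libraries with the same number did not vary together (correlation of deviations −0.34), and pairing them crosswise, chosen after seeing the data, gave 1193 and 1007. The replicate block left the log2 ratio of peak numbers at −0.14.

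Gene ends of 1000 bp held 22.4% of drone-only and 12.95% of queen-only regions, and left 10.9% and 10.9% between genes. Counting any overlap gave 12.1% and 6.24% at gene ends, and a −log10 q of at least 5 gave 11.6% of drone-only regions between genes. Linking over 5 kb gave 171 queen-only clusters. When a peak had to cover at least 50% of a region, worker peaks held 49.3% of queen-only regions, and the caste differences were 45.1 points for H3K4me1 and 11.6 points for H3K4me3.

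For single genes, counts under the settings above were added after seeing the data. The class with more regions turned in nAChRa3 without drone 1 (5 drone-only, 6 queen-only) and in Nedd9 at a −log10 q of at least 5 (1 and 3) and without queen 2 (4 and 8). It turned in nAChRa1 without queen 1 (1 and 2), and in nAChRa7 without drone 2 (2 and 1). At a fold of at least 3 it turned in LOC725329 (15 drone-only, 12 queen-only), LOC413503 (3 and 0), Abscam (1 and 0) and Amih (2 and 1). Nedd9, with 3 regions of each class as reported, had more queen-only regions at a −log10 q of at least 5 (1 and 3) and without queen 2 (4 and 8). Whether peaks missing from the drone lists, whose recovered depth was lower, lie below the q-value threshold was not tested.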
